A study of Mus musculus with 6 samples.

Results

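The cytochrome P450 enzymes measured here are 31 protein-coding genes of 23390 genes in the table. They were chosen by symbol, a Cyp prefix followed by number, letter and number, and selected on a measured value, a count of at least 60 summed over the 6 libraries. A total of 58 protein-coding rows carried such a symbol, and 27 of them stayed below the limit. Cyp2t4, with 71 counts, was the member nearest the limit, and Cyp3a59, with 55 counts, was the gene nearest outside it. Of the members, 30 passed the filter on low counts and were tested, and Cyp3a44 was not. The limit was reached within both groups by 25 members. It was reached within a single group by 5, namely Cyp1a1, Cyp2c23, Cyp3a44 and Cyp4f17 in the controls and Cyp26b1 in the other group.

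P450 enzymes are heme proteins, most of them in the membrane of the endoplasmic reticulum, that insert an oxygen atom into fatty acids, sterols, retinoids, hormones, drugs and plant compounds. Most take their electrons from P450 oxidoreductase (Por), and the mitochondrial forms take them from adrenodoxin. In the small intestine they are best known from absorptive enterocytes, where the Cyp3a enzymes meet drugs and dietary compounds before the liver does. Nuclear receptors such as Nr1i2 (PXR) and Nr1i3 (CAR), and the aryl hydrocarbon receptor Ahr, are known inducers of several of these genes.

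The RNA came from viable CD45- EpCAM+ cells sorted out of the small intestine of C57BL/6 mice. CD45 marks leukocytes and EpCAM marks epithelium. The controls were 3 libraries from Maf.flox mice, which carry a floxed gene for the transcription factor c-Maf and no Cre. The other group was 3 libraries from Vil.Cre Maf.flox mice, in which the villin promoter drives Cre in intestinal epithelium. Age and sex are not labelled, no group carried Cre without floxed Maf, and the sort did not separate enterocytes from the rest of the epithelium. Whether every library is a separate mouse is not labelled, so p-values reflect only how these libraries differ, which may be technical.

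The comparison asks which RNAs differ in epithelial cells that lack c-Maf. Maf itself had 9398, 5615 and 3893 counts in the controls (replicates 1, 2 and 3 in order, here and below) and 16, 1 and 1 after deletion. Libraries held 17464355 to 24802525 counts. Within a group, replicate pairs had a chi-square of 32.9 to 119 per gene, well above sampling noise, and the largest was between Maf.flox replicates 1 and 3. By Xist and Y-linked counts, Maf.flox replicate 1 and Vil.Cre Maf.flox replicates 1 and 2 were male and the other 3 libraries female. Epcam stood between 1922 and 2305 CPM (TMM-normalised counts scaled to library size) in every library. Ptprc, which encodes CD45, stood between 0.101 and 2.29 CPM, and Alb, a defining gene of liver cells, between 0 and 0.156 CPM. Other immune markers were not all near 0. Itgam stood at 5.72 to 7.49 CPM in Maf.flox and 10.8 to 15.3 in Vil.Cre Maf.flox. Lcp1 stood at 12.9 to 22.7 CPM and Cd74 at 1783 to 2838 CPM over all libraries. Of 5 immune markers tested, 2 were lower in Vil.Cre Maf.flox and 3 higher. Ttr, another liver marker, stood at 2.44 to 5.58 CPM.

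The promoters of the 4 Cyp3a members are shown because these paralogs include the member with the largest difference between genotypes and a member with almost none. Each window runs from 250 bases before to 50 bases after the RefSeq transcript start (GRCm38.p6), on the minus strand, written 5′ to 3′ along the gene. Capitals mark matches on either strand to CAAAGTCCA (a known Hnf4 site), TGANTCA (AP-1), TGCTGA (part of the known Maf recognition element) or GCGTG (the Ahr core). The windows are chr5:145879805-145880104 for Cyp3a11, chr5:146009568-146009867 for Cyp3a25, chr5:145805825-145806124 for Cyp3a44 and chr5:137921570-137921869 for Cyp3a13.
Cyp3a11: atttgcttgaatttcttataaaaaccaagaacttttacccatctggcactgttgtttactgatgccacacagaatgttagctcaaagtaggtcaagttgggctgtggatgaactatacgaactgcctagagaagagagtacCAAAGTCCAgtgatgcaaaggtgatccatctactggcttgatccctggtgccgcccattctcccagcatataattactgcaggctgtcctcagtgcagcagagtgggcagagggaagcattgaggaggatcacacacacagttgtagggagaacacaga
Cyp3a25: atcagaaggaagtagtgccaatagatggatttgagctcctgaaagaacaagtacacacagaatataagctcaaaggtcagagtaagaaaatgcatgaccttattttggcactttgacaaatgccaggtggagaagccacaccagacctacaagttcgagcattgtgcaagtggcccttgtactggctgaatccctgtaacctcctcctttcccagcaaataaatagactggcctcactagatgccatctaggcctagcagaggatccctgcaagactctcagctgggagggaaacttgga
Cyp3a44: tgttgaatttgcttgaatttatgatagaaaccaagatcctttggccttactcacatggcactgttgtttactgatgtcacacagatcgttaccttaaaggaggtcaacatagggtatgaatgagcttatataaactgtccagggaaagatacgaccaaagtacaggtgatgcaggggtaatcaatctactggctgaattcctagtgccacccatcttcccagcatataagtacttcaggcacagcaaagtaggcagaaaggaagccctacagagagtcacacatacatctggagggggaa
Cyp3a13: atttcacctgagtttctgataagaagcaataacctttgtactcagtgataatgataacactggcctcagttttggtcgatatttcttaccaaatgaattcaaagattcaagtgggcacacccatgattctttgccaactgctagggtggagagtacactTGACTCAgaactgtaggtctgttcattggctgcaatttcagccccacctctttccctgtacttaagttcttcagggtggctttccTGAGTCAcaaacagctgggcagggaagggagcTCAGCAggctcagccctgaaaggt

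Cyp3a11 and Cyp3a44 shared 75% of their 300 bases in a global alignment, and the other 5 pairs shared between 46% and 53.3%. The alignment put no cost on mismatches, and no unrelated windows were aligned for comparison. CAAAGTCCA stood at position -109 from the start in Cyp3a11. Cyp3a13 held 2 matches to TGANTCA and 1 to TGCTGA. Cyp3a25 and Cyp3a44 held no match to any motif searched in this window. RefSeq windows were found for 25 of the 31 members, 30 windows in all. CAAAGTCCA occurred in 3 of these 30 windows (10%; Cyp2c65, Cyp2c68 and Cyp3a11), against 0.475% of all 32851 windows in the table. TGCTGA occurred in 10% of member windows and 19.5% of all windows, GCGTG in 30% and 32.4%, and TGANTCA in 10% and 7.81%. The full Maf element, in which TGCTGA faces its reverse complement with 1 or 2 bases between, was in none of the 30 member windows and, with each spacing, in 2 of all windows. A match is a description of letters and not evidence of binding.

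Most members were lower in Vil.Cre Maf.flox than in Maf.flox epithelium, and the size ran from almost none to 21.9-fold. Of the 30 tested, 27 had a log2 fold change below 0 (51.6% of all 13740 genes tested did), and 3 were above 0. Their median log2 fold change was -0.67, beside -0.01 over all genes tested. At least 2-fold lower were 12 members, against 3.44% of all genes, and at least 2-fold higher was 1, against 1.11%. That 1 was Cyp26b1, which reached the 60-count limit only in Vil.Cre Maf.flox. The 12 include Cyp1a1, which reached it only in the controls. The members that reached the 60-count limit within both groups had a median of -0.68, with 23 of 25 below 0. Members measured in the same cells are not replicates, so these counts describe the family and are not a test.

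No member passed edgeR's quasi-likelihood test at a Benjamini-Hochberg adjusted p under 0.05, in either direction. The same test called 0.357% of all genes lower and 0.189% higher. At an adjusted p under 0.1 in edgeR's quasi-likelihood test, 4 members were lower and none higher, against 1.69% and 1.02% of all genes. These 4 were Cyp4v3, Cyp2d26, Cyp27a1 and Cyp2b10. An unadjusted p under 0.05 was reached by 13 members lower and 2 higher, against 9.25% and 7.11% of all genes. DESeq2 called 10 members lower and none higher, against 3.47% and 2.06% of all genes, and limma-voom called none in either direction, with 0.153% of all genes lower. All 3 libraries of a group lay beyond all 3 of the other for 10 members lower and 2 higher, against 10.5% and 10.1% of all genes.

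**Figure D1:**
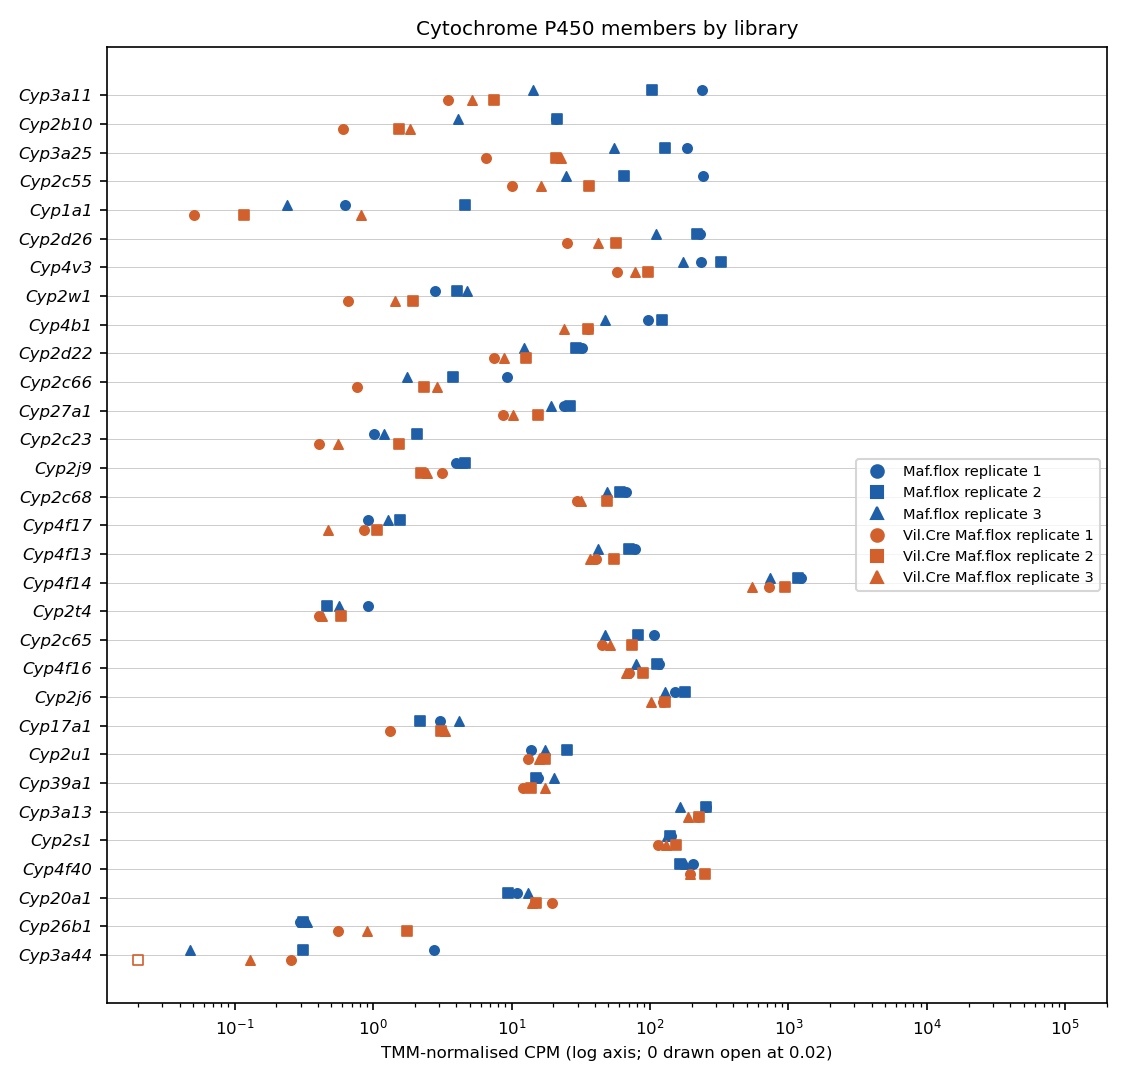
TMM-normalised CPM (log axis) of each of the 31 members in each library, blue for Maf.flox and orange for Vil.Cre Maf.flox, with the symbol shape giving the replicate and members in order of fold change. Cyp3a11 spans 14.2 to 236 CPM among the blue points and 3.5 to 7.46 CPM among the orange, while the groups of Cyp3a13 and of Cyp2s1 overlap.

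**Figure D2:**
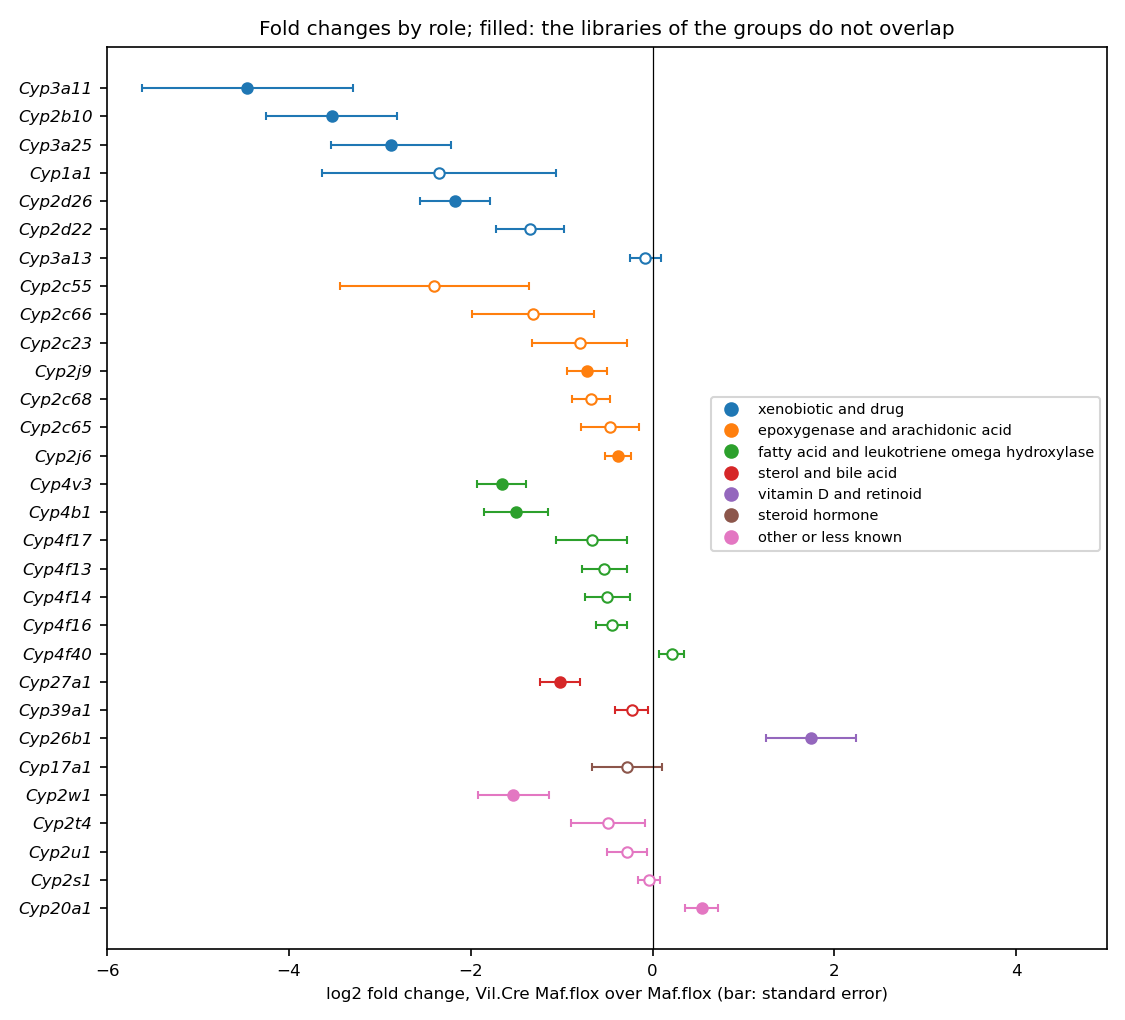
Log2 fold change of Vil.Cre Maf.flox over Maf.flox for the 30 members tested (bars are standard errors), coloured by role, and filled where the libraries of the groups do not overlap. The points run from -4.46 for Cyp3a11 to 1.74 for Cyp26b1, and 27 lie left of 0.

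The drug-metabolising subfamilies Cyp1a, Cyp2b, Cyp2d and Cyp3a held the largest differences. All 7 tested members were below 0, with a median log2 fold change of -2.35, and 6 were at least 2-fold lower. That median is the value of Cyp1a1, which reached the count limit only in the controls; over the other 6 members it was -2.53, with 5 at least 2-fold lower. Libraries did not overlap in 4 of the 7, all lower, against 10.5% of all genes tested. None of the 7 passed edgeR's quasi-likelihood test after Benjamini-Hochberg adjustment. DESeq2 called 5 of them lower, against 3.47% of all genes.

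Cyp3a11, a main drug-oxidising Cyp3a enzyme of mouse liver and gut (ENSMUSG00000056035, GRCm38 chromosome 5, 145854426 to 145879964, minus strand), had 236, 103 and 14.2 CPM in Maf.flox replicates 1 to 3. In Vil.Cre Maf.flox it had 3.5, 7.46 and 5.22 CPM. The groups did not overlap, yet the highest control was 16.6 times the lowest, and the lowest control was 1.9 times the highest Vil.Cre Maf.flox library. That made a log2 fold change of -4.46 (SE 1.16, edgeR quasi-likelihood, Benjamini-Hochberg adjusted p = 0.185). DESeq2 gave an adjusted p of 0.000678. The size rests in part on Maf.flox replicate 1: without it the log2 fold change was -3.44, with an adjusted p of 0.321 in edgeR's quasi-likelihood test. Without Maf.flox replicate 3 it was -4.98, with an adjusted p of 0.00723 in that edgeR test. It was -3.77 with limma-voom and -3.78 with a replicate block, and passed in neither.

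Cyp3a25, a neighbouring Cyp3a enzyme (ENSMUSG00000029630, chromosome 5, 145977194 to 146009618, minus strand), had 186, 128 and 54.8 CPM in Maf.flox. It had 6.59, 21 and 22.6 CPM in Vil.Cre Maf.flox, so every control lay above every Vil.Cre Maf.flox library. On the log2 scale the difference was -2.88 (SE 0.659, edgeR quasi-likelihood, Benjamini-Hochberg adjusted p = 0.138; DESeq2 adjusted p = 0.00202). Cyp3a13, the Cyp3a gene with the highest FPKM here (ENSMUSG00000029727, chromosome 5, 137892932 to 137921619, minus strand), had 252, 255 and 166 CPM in Maf.flox. In Vil.Cre Maf.flox it had 223, 225 and 189 CPM, within the control range. This gene's log2 fold change was -0.08 (SE 0.172, edgeR quasi-likelihood, Benjamini-Hochberg adjusted p = 0.863), and it turned to 0.02 without Maf.flox replicate 1 and to 0.03 without replicate 2. Cyp3a13 lies 7.85 Mb from Cyp3a44, the nearest of the other 3, which lie within 145773983 to 146009618 of the same chromosome. Cyp3a44 had 66, 6 and 1 counts in Maf.flox and 5, 0 and 3 in Vil.Cre Maf.flox, so its level rests on Maf.flox replicate 1. Cyp3a59, outside the count limit, had 22, 22 and 6 counts against 0, 1 and 4.

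Read sharing among these paralogs touches some values. Of the 50-base windows in the transcripts of Cyp3a25, 26.8% also occur in another gene, 25% in Cyp3a59. The share was 26.5% for Cyp3a44 and 14.8% for Cyp3a11, and no window of Cyp3a13 was shared. How such reads were counted is not given in the sources used here, and split values between near-identical copies are uncertain.

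Cyp2b10, a gene classically induced through Nr1i3 (ENSMUSG00000030483, chromosome 7, 25897620 to 25926624, plus strand), had 20.8, 21.4 and 4.13 CPM in Maf.flox. In Vil.Cre Maf.flox it had 0.609, 1.53 and 1.84 CPM. The groups did not overlap, and Maf.flox replicate 3 stood nearer to the Vil.Cre Maf.flox libraries than to the other controls. The fitted log2 fold change came to -3.53 (SE 0.721, edgeR quasi-likelihood, Benjamini-Hochberg adjusted p = 0.093; DESeq2 adjusted p = 0.00072). Cyp2s1, an extrahepatic P450 whose gene lies 80.7 kb away on the same chromosome, had 141, 139 and 133 CPM in Maf.flox and 115, 155 and 131 in Vil.Cre Maf.flox. Its log2 fold change of -0.04 (SE 0.122) turned to 0.06 without Vil.Cre Maf.flox replicate 1.

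Cyp2d26, of the subfamily that in humans handles many amine drugs (ENSMUSG00000022445, chromosome 15, 82790101 to 82794294, minus strand), had 228, 220 and 110 CPM in Maf.flox. It had 25.2, 56.7 and 41.9 CPM in Vil.Cre Maf.flox. Even the lowest control was 1.94 times the highest Vil.Cre Maf.flox library. The log2 fold change was -2.17 (SE 0.385, edgeR quasi-likelihood, Benjamini-Hochberg adjusted p = 0.0736; DESeq2 adjusted p = 8.61e-10). Cyp2d22 had 32.3, 29 and 12.2 CPM against 7.46, 12.7 and 8.77, so Maf.flox replicate 3 lay within the other group's range. It had a log2 fold change of -1.35 (SE 0.375, edgeR quasi-likelihood, Benjamini-Hochberg adjusted p = 0.152; DESeq2 adjusted p = 0.00287).

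Cyp1a1, the classical Ahr target, was scarce, with 15, 89 and 5 counts in Maf.flox and 1, 2 and 19 in Vil.Cre Maf.flox. A single library dominates each group. The log2 fold change of -2.35 (SE 1.29, edgeR quasi-likelihood, Benjamini-Hochberg adjusted p = 0.427) became -0.32 without Maf.flox replicate 2 and -4.36 without Vil.Cre Maf.flox replicate 3.

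The subfamilies Cyp2c and Cyp2j, known for epoxides and hydroxy acids of arachidonic acid, were lower by smaller amounts. All 7 members were below 0, with a median log2 fold change of -0.72 and a range of -2.40 to -0.38. Without Cyp2c23, which reached the count limit only in the controls, 6 of 6 were below 0, with a median of -0.70. Only the 2 Cyp2j genes had libraries that did not overlap, both lower, against 10.5% of all genes tested. No member of either subfamily passed edgeR's quasi-likelihood test after Benjamini-Hochberg adjustment. DESeq2 called Cyp2c68 lower (adjusted p = 0.0406), while it called 3.47% of all genes lower.

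Cyp2c55 (ENSMUSG00000025002, chromosome 19, 39007019 to 39042693, plus strand) had 241, 65.2 and 24.6 CPM in Maf.flox and 10, 36.5 and 16.4 CPM in Vil.Cre Maf.flox. The groups overlapped, since Maf.flox replicate 3 lay below Vil.Cre Maf.flox replicate 2. Its log2 fold change was -2.40 (SE 1.04, edgeR quasi-likelihood, Benjamini-Hochberg adjusted p = 0.355), -1.10 without Maf.flox replicate 1 and -3.04 without Vil.Cre Maf.flox replicate 2. Cyp2c66, in the same cluster, had 9.29, 3.75 and 1.75 CPM against 0.761, 2.35 and 2.87. Its log2 fold change of -1.31 became -0.44 without Maf.flox replicate 1. Cyp2c65, its neighbour, had the highest mean FPKM of the subfamily over all 6 libraries, although Cyp2c55 was higher in the controls (55.4 ± 58.2 against 40.6 ± 15.8 FPKM; SD, n = 3 each). It had 107, 82.2 and 47 CPM against 44.8, 74.4 and 51.8. That is a log2 fold change of -0.47 (SE 0.317, edgeR quasi-likelihood, Benjamini-Hochberg adjusted p = 0.528). Cyp2c68 had 67.1, 61.1 and 48.5 CPM against 29.9, 49.1 and 31.5. This gene's log2 fold change was -0.68 (SE 0.208), and 43.3% of its 50-base windows occur in another gene, 35.6% in Cyp2c40. Cyp2c65 and Cyp2c66 shared 20.2% and 24% of their windows with each other.

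Cyp2j6, an intestinal member of the epoxygenase subfamily Cyp2j (ENSMUSG00000052914, chromosome 4, 96516138 to 96553661, minus strand), had 152, 180 and 128 CPM in Maf.flox. It had 124, 128 and 102 CPM in Vil.Cre Maf.flox, and the groups met at 128. That made a log2 fold change of -0.38 (SE 0.147, edgeR quasi-likelihood, Benjamini-Hochberg adjusted p = 0.245). Cyp2j9, next to it, had 3.95, 4.63 and 4.36 CPM against 3.14, 2.23 and 2.44. It had a log2 fold change of -0.72 (SE 0.224, edgeR quasi-likelihood, Benjamini-Hochberg adjusted p = 0.17). Its 3 controls lay within 1.17 times of each other, among the narrowest spreads of the family.

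The Cyp4 enzymes hydroxylate fatty acids and leukotrienes at the far end of the chain. Of 7 members, 6 were below 0 with a median log2 fold change of -0.53, and 2, Cyp4v3 and Cyp4b1, were over 2-fold lower with no overlap between the groups. These 2 were also the members of the role that DESeq2 called, while it called 3.47% of all genes lower. Over all genes tested, 10.5% were lower without overlap. Without Cyp4f17, which reached the count limit only in the controls, 5 of 6 members of the role were below 0, with a median of -0.51. The 5 Cyp4f genes lie within 32506462 to 32947402 of chromosome 17, and their log2 fold changes ran from -0.67 to 0.21.

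Cyp4v3, the mouse counterpart of a fatty acid hydroxylase linked to a crystalline retinal disease (ENSMUSG00000079057, chromosome 8, 45304944 to 45333216, minus strand), had 234, 327 and 173 CPM in Maf.flox. In Vil.Cre Maf.flox it had 57.5, 97.1 and 78.2 CPM. The lowest control was 1.78 times the highest library of the other group. On the log2 scale the difference was -1.66 (SE 0.271, edgeR quasi-likelihood, Benjamini-Hochberg adjusted p = 0.0546; DESeq2 adjusted p = 8.58e-09). Its adjusted p was the smallest of the family in edgeR's quasi-likelihood test and passed there without Maf.flox replicate 3 (0.00637) and with upper quartile scaling (0.0441). An annotated gene on the same strand, Gm45753, overlaps it and shares 7.02% of its 50-base windows.

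Cyp4b1, which oxidises fatty acids and some toxic plant compounds (ENSMUSG00000028713, chromosome 4, 115624725 to 115647723, minus strand), had 97.3, 123 and 47.6 CPM in Maf.flox and 35.8, 35.4 and 24.1 in Vil.Cre Maf.flox. The groups did not overlap, and the lowest control was 1.33 times the highest Vil.Cre Maf.flox library. The fitted log2 fold change came to -1.50 (SE 0.354, edgeR quasi-likelihood, Benjamini-Hochberg adjusted p = 0.123; DESeq2 adjusted p = 6.27e-05).

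Cyp4f14, a leukotriene hydroxylase, was the most abundant member by FPKM (ENSMUSG00000024292, chromosome 17, 32905071 to 32917342, minus strand). It had 1229, 1166 and 741 CPM in Maf.flox and 727, 946 and 546 in Vil.Cre Maf.flox, with overlap between the groups. Its log2 fold change was -0.50 (SE 0.248, edgeR quasi-likelihood, Benjamini-Hochberg adjusted p = 0.37). Cyp4f40 (chromosome 17, 32659410 to 32676687) had 204, 165 and 178 CPM against 193, 248 and 193, the only Cyp4f member above 0 with a log2 fold change of 0.21 (SE 0.136). Cyp4f16 (chromosome 17, 32536558 to 32551798) had 117, 112 and 78.7 CPM against 70.1, 88.3 and 66.8. That gave -0.45 (SE 0.17), with 26.5% of its 50-base windows shared with other genes.

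Of the sterol enzymes, Cyp27a1, the mitochondrial enzyme that hydroxylates the cholesterol side chain (ENSMUSG00000026170, chromosome 1, 74713574 to 74737892, plus strand), had 24, 26.5 and 19.2 CPM in Maf.flox. It had 8.72, 15.4 and 10.2 CPM in Vil.Cre Maf.flox, with no overlap and no shared 50-base windows. The log2 fold change was -1.02 (SE 0.222, edgeR quasi-likelihood, Benjamini-Hochberg adjusted p = 0.0849; DESeq2 adjusted p = 0.00108). Cyp39a1, which hydroxylates oxysterols, had 15.5, 15.1 and 20.3 CPM against 12.1, 13.8 and 17.5, a log2 fold change of -0.23 (SE 0.181) with overlapping libraries.

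Cyp26b1, which degrades retinoic acid, was the member with the largest difference in the other direction (ENSMUSG00000063415, chromosome 6, 84571414 to 84593908, minus strand). It had 7, 6 and 7 counts in Maf.flox and 11, 30 and 21 in Vil.Cre Maf.flox, or 0.294, 0.312 and 0.332 CPM against 0.558, 1.76 and 0.899. The groups did not overlap. That made a log2 fold change of 1.74 (SE 0.497, edgeR quasi-likelihood, Benjamini-Hochberg adjusted p = 0.147; DESeq2 adjusted p = 0.0927), and 1.23 without Vil.Cre Maf.flox replicate 2. Cyp26b1 reached the 60-count limit only within Vil.Cre Maf.flox (62 counts, against 20 in Maf.flox), so the selection favoured this direction. In these libraries 3 counts correspond to 0.126 to 0.176 CPM. Cyp17a1, an enzyme of androgen synthesis, stood at 2.19 to 4.17 CPM in Maf.flox and 1.32 to 3.29 in Vil.Cre Maf.flox, and its log2 fold change of -0.28 turned to 0.04 without Vil.Cre Maf.flox replicate 1.

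Among the 5 less known enzymes, 4 were below 0 and their median log2 fold change was -0.28. Cyp2w1 (ENSMUSG00000029541, chromosome 5, 139352617 to 139357033, plus strand) had 2.82, 4.06 and 4.79 CPM in Maf.flox and 0.659, 1.94 and 1.45 in Vil.Cre Maf.flox. Here Maf.flox replicate 3 was the highest control, unlike in most lower members. On the log2 scale the difference was -1.53 (SE 0.387, edgeR quasi-likelihood, Benjamini-Hochberg adjusted p = 0.112; DESeq2 adjusted p = 0.00734). Cyp20a1, an enzyme without an established substrate, had 10.9, 9.37 and 13.2 CPM against 19.6, 15 and 14.1. It did not overlap between groups and had a log2 fold change of 0.54 (SE 0.183, edgeR quasi-likelihood, Benjamini-Hochberg adjusted p = 0.198). Cyp2t4 had 0.925, 0.468 and 0.569 CPM against 0.406, 0.587 and 0.428, a log2 fold change of -0.49 (SE 0.412). Cyp2u1 stood at 13.8 to 25.2 CPM in Maf.flox and 13.2 to 17.3 in Vil.Cre Maf.flox.

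FPKM, which divide a count by gene length and library size, allow levels to be set between genes of different length. The 31 members summed to 1485, 1291 and 816 FPKM in Maf.flox replicates 1 to 3 and 696, 916 and 635 in Vil.Cre Maf.flox, with overlap. The means were 1197 ± 344 and 749 ± 148 FPKM (SD, n = 3 each), 1.6-fold apart, or 1.85-fold without Maf.flox replicate 3. In the controls Cyp4f14 led with 433 ± 111 FPKM, followed by Cyp2d26 (103 ± 36.9), Cyp4f40 (97.9 ± 11.7) and Cyp3a13 (75.5 ± 17.3; SD, n = 3 each). The neighbours after the first overlapped within their spread. In Vil.Cre Maf.flox Cyp4f14 still led with 308 ± 82.3 FPKM, then Cyp4f40 (114 ± 16.6) and Cyp3a13 (72 ± 6.62), with Cyp2d26 at 23.1 ± 8.76 (SD, n = 3 each).

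The subfamilies took different shares of this sum. Cyp4f made up 46.3%, 48.4% and 54% of the summed FPKM in Maf.flox. Its share was 63.7%, 62.5% and 57.7% in Vil.Cre Maf.flox, without overlap. Its own sum was lower on average (584 ± 129 against 461 ± 104 FPKM, SD, n = 3 each), but with overlap. That sum was 688, 625 and 440 FPKM in Maf.flox and 443, 572 and 367 in Vil.Cre Maf.flox. Cyp2d held 136, 129 and 64.1 FPKM in Maf.flox and 16, 34.8 and 25.8 in Vil.Cre Maf.flox, 4.29-fold less on average, and its mean share was 9% against 3.39%. Cyp3a summed to 224, 166 and 84.5 FPKM against 79.6, 87.4 and 76.4. The control replicate 3 lay inside the range of the other group, and most of the Vil.Cre Maf.flox sum was Cyp3a13. Cyp2c summed to 222, 112 and 65.8 FPKM against 46.3, 87.2 and 55.5, with overlap. Without Maf.flox replicate 3 the Cyp2c sum was 2.65-fold, the Cyp3a sum 2.4-fold and the Cyp2d sum 5.19-fold lower. No test was made on these sums.

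**Figure D3:**
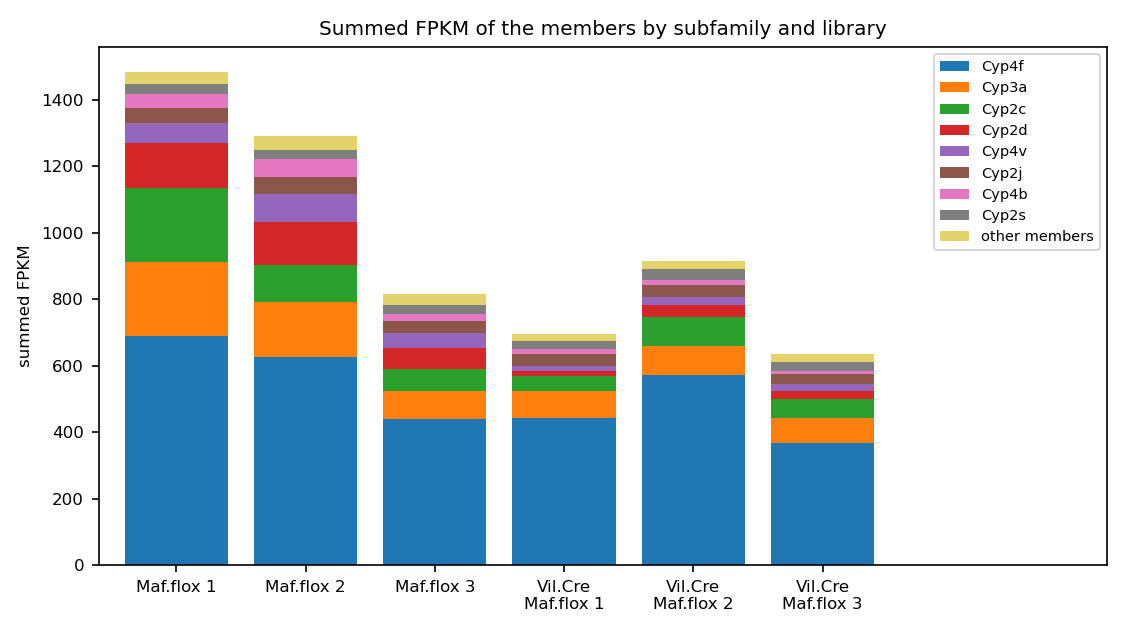
Summed FPKM of the members in each library, stacked by subfamily. The full bars reach 1485, 1291 and 816 in Maf.flox and 696, 916 and 635 in Vil.Cre Maf.flox, and the Cyp4f segment (440 to 688 and 367 to 572) is the largest in each bar.

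Libraries of both groups varied more in these genes than over all genes tested. Across members tested, the highest control was a median of 1.84 times the lowest, against 1.27 over all genes tested, and the figures for Vil.Cre Maf.flox were 1.7 and 1.28. Within Vil.Cre Maf.flox the libraries were at least 2-fold apart for 12 of the 30 members tested. Among the controls this held for 11 of the 30, and for 12 of all 31 with Cyp3a44. The share over all genes is not given here. Among the controls the ratio was 58.5 for Cyp3a44, 19.5 for Cyp1a1, 16.6 for Cyp3a11, 9.81 for Cyp2c55, 5.29 for Cyp2c66 and 5.18 for Cyp2b10. Maf.flox replicate 3 was the lowest control for 20 of 31 members (64.5%, against 38.4% of all genes tested). In Vil.Cre Maf.flox, replicate 2 was the highest for 21 members (67.7%, against 35.7% of all genes) and replicate 1 the lowest for 21 (67.7%, against 28.3%).

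Leaving out Maf.flox replicate 3 changed the calls more than any other omission. Without it edgeR's quasi-likelihood test called 9 members lower, while 4.11% of all genes tested were then called lower. These were Cyp4b1, Cyp3a11, Cyp4f16, Cyp2b10, Cyp2d22, Cyp4v3, Cyp27a1, Cyp2d26 and Cyp4f13. The number below 0 stayed at 27 of 30 and the number at least 2-fold lower at 12, and the median log2 fold change was -0.74.

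**Figure D4:**
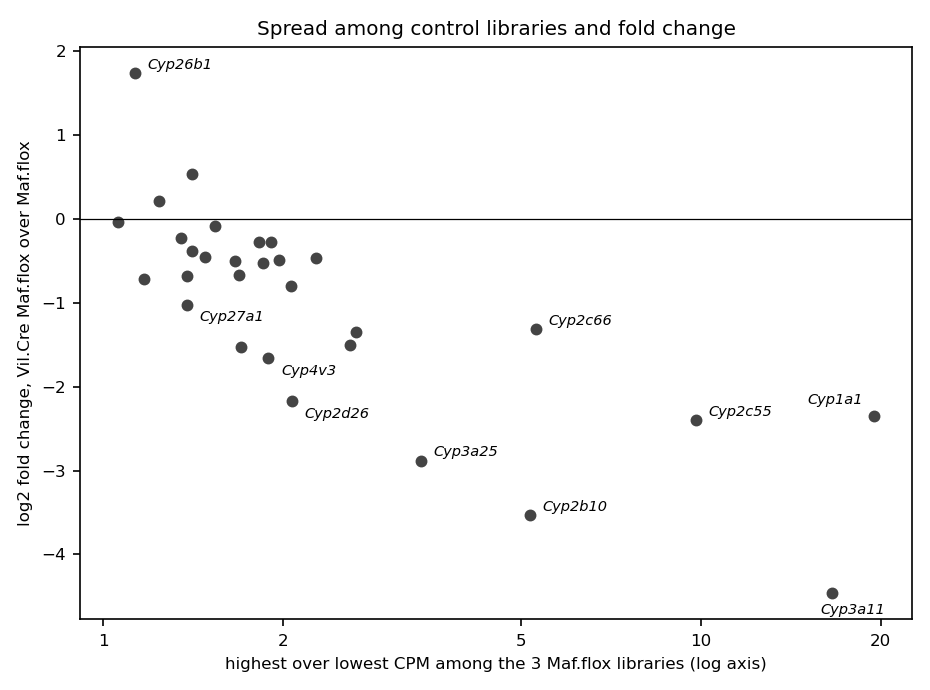
Spread among the 3 Maf.flox libraries (highest over lowest CPM, log axis) against the log2 fold change for the 30 members tested. Cyp3a11, Cyp1a1 and Cyp2c55 lie at a spread of 16.6, 19.5 and 9.81, while Cyp4v3, Cyp27a1 and Cyp2d26 lie at 1.89, 1.38 and 2.07.

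The genes that supply P450 enzymes with electrons and heme differed little. Of 9 tested redox partners, 6 were below 0, with a median log2 fold change of -0.14 and a range of -0.45 to 0.16. Por, the electron donor of the microsomal enzymes, had 112, 118 and 85.2 CPM in Maf.flox and 78.9, 92.4 and 79.5 in Vil.Cre Maf.flox. This gene's log2 fold change was -0.33 (SE 0.138, edgeR quasi-likelihood, Benjamini-Hochberg adjusted p = 0.28). Of 11 tested genes of heme synthesis and breakdown, 3 were below 0, with a median of 0.06 and a range of -0.13 to 0.29. No gene of either list passed edgeR's quasi-likelihood test or DESeq2. In the edgeR test 2 redox partners, Por and Pgrmc1, were lower with an unadjusted p under 0.05, against 9.25% of all genes.

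Among 20 tested receptors and regulators, 16 were below 0 with a median log2 fold change of -0.15, and none passed edgeR's quasi-likelihood test after Benjamini-Hochberg adjustment. An unadjusted p under 0.05 was reached there by 4 lower and 1 higher, against 9.25% and 7.11% of all genes. DESeq2 called 2 lower (Creb3l3 and Hnf4g) and 1 higher (Ppard), against 3.47% and 2.06% of all genes. Nr1i2, the receptor for many Cyp3a inducers, had 115, 101 and 94.4 CPM against 82.6, 103 and 93.2, a log2 fold change of -0.15 (SE 0.12). Nr1i3, the receptor linked to Cyp2b10, stood at 1.77 to 2.86 CPM in Maf.flox and 1.07 to 2.31 in Vil.Cre Maf.flox, with a log2 fold change of -0.64 (SE 0.365). Ahr had a log2 fold change of -0.19 (SE 0.145). Of the 4 tested Ahr targets outside the family, 3 were below 0, with a median of -0.36 and a range of -1.28 to 0.26. The 1 above 0 was Nqo1, at 32.1 to 36.8 CPM in Maf.flox and 37.4 to 45.4 in Vil.Cre Maf.flox. Its groups did not overlap, and 10.1% of all genes were higher without overlap. Gsta1, at -1.28, had 8.49, 2.5 and 2.89 CPM against 1.37, 2.7 and 1.71. Hnf4a, an activator of many intestinal and hepatic P450 genes, had 1152, 1139 and 1139 CPM against 1074, 1118 and 1115, a log2 fold change of -0.05 (SE 0.114). Creb3l3, a transcription factor of enterocytes and hepatocytes, had 103, 116 and 39.5 CPM against 13.9, 9.04 and 13.9. It had a log2 fold change of -2.80 (SE 0.44, edgeR quasi-likelihood, Benjamini-Hochberg adjusted p = 0.0674; DESeq2 adjusted p = 3.03e-06).

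Markers of enterocytes were lower in the same libraries as the P450 genes. The 7 markers (Alpi, Apoa1, Apoa4, Fabp1, Fabp2, Slc5a1 and Sis) were all below 0, with a median log2 fold change of -1.23. DESeq2 called 4 of them lower, against 3.47% of all genes, while edgeR's quasi-likelihood test called none. The 7 summed to 16057, 15536 and 6738 CPM in Maf.flox and 5571, 7426 and 4030 in Vil.Cre Maf.flox. The 31 members summed to 3712, 3348 and 2092 CPM and to 1775, 2313 and 1618 CPM in the same libraries, so that Maf.flox replicate 3 was the lowest control and Vil.Cre Maf.flox replicate 2 the highest of its group in both. The 5 villus tip markers summed to 226 to 366 CPM in Maf.flox and 197 to 239 in Vil.Cre Maf.flox. The 5 general epithelial markers summed to 15292, 14207 and 12424 CPM in Maf.flox and 13302, 15789 and 11943 in Vil.Cre Maf.flox. There too Maf.flox replicate 3 was the lowest control and Vil.Cre Maf.flox replicate 2 the highest of its group. The same held for the sums of villus tip, goblet cell, proximal and distal small intestine markers. These lists shared the order of libraries, while the sizes differed. From Maf.flox replicate 1 to 3 the enterocyte sum went from 16057 to 6738 CPM. The goblet cell sum went from 33553 to 14656 CPM and the general epithelial sum from 15292 to 12424 CPM. In bulk samples, fewer cells of a type and less RNA per cell cannot be told apart. The part of enterocyte content in the lower P450 levels was not tested.

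Markers of several other epithelial cells were also mostly below 0, and none passed edgeR's quasi-likelihood test at an adjusted p under 0.05. The 7 tuft cell markers were all below 0, with a median log2 fold change of -1.67, beyond that of the enterocyte markers. All 7 had an unadjusted p under 0.05 in the edgeR test, against 9.25% of all genes lower. DESeq2 called 5, against 3.47% of all genes lower. The tuft cell markers summed to 34.5, 70.2 and 17.4 CPM in Maf.flox and 14.2, 14.6 and 15.5 in Vil.Cre Maf.flox, without overlap. Of 6 Paneth cell markers 5 were below 0, with a median of -1.12. The 6 Paneth cell markers summed to 4402, 14217 and 26758 CPM in Maf.flox and 6246, 6210 and 8652 in Vil.Cre Maf.flox, with replicate 3 the highest of the controls. All 5 stem cell markers were below 0 (median -0.37; 1848 to 2615 CPM summed in Maf.flox, 1608 to 2224 in Vil.Cre Maf.flox), as were 5 of 6 enteroendocrine markers (median -0.54; 236 to 736 and 225 to 388 CPM). Of 7 goblet cell markers 5 were below 0, with a median of -0.25 and sums of 14656 to 33553 and 14696 to 27966 CPM. The 6 markers of proximal small intestine summed to 205 to 329 CPM in Maf.flox and 239 to 280 in Vil.Cre Maf.flox, and the 6 of distal small intestine to 7914 to 13216 and 9160 to 16305. Of 5 tested proximal markers 3 were below 0 and 2 above, and of 6 distal markers 4 and 2. DESeq2 called Slc40a1 (proximal, log2 fold change 1.04), Lypd8 (distal, 0.70) and Agr2 (goblet, 0.90) higher, against 2.06% of all genes. It called the stem cell marker Axin2 lower (-0.62). The part of all these markers in the P450 differences was not tested.

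**Figure D5:**
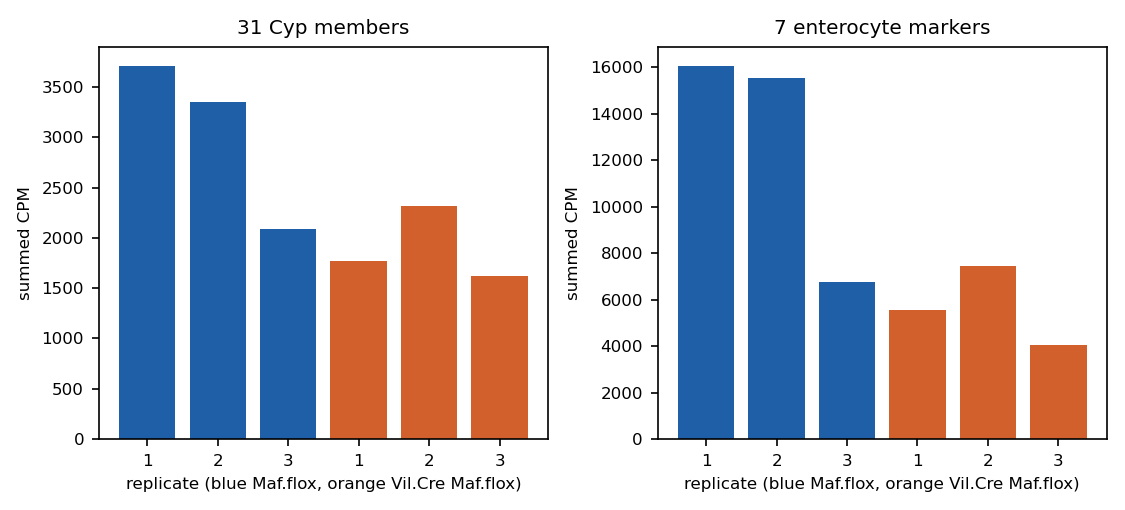
Summed TMM-normalised CPM in each library of the 31 P450 members (left) and of 7 enterocyte markers (right), blue for Maf.flox and orange for Vil.Cre Maf.flox. In both panels Maf.flox replicates 1 and 2 are highest, and Maf.flox replicate 3 (2092 and 6738 CPM) lies below the highest Vil.Cre Maf.flox library (2313 and 7426 CPM).

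Sex was not balanced between the groups, and several mouse P450 genes are known to differ by sex in liver. Within males (1 Maf.flox and 2 Vil.Cre Maf.flox libraries) 25 of 30 members were lower, with a median log2 ratio of mean CPM (0.1 added) of -0.73. Within females (2 and 1 libraries) 25 of 30 were also lower, with a median of -0.80. The medians over all genes were 0.01 and -0.02. Cyp3a11 was at -5.40 in males and -3.46 in females, Cyp2d26 at -2.47 and -1.98, and Cyp4v3 at -1.60 and -1.68. Cyp2c66 was at -2.50 in males and 0.06 in females. With so few libraries of each sex these values carry no test. An edgeR quasi-likelihood fit of all libraries with a sex term called no member after Benjamini-Hochberg adjustment. In that fit 27 of 30 members were below 0, with a median log2 fold change of -0.72.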

How the data were processed

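The table deposited by the authors gives whole-number counts and FPKM for 23390 genes in 6 libraries of sorted epithelial cells, 3 of each genotype. The submitters' processing notes name the GRCm38 (mm10) build, DESeq2, featureCounts 1.5.0-p3 and HISAT2 2.0.5. The protocol does not state whether strand was kept, so genes that overlap on opposite strands (Cyp2c55, Cyp2s1, Cyp2t4 and Cyp2u1) may share reads. The FPKM values deposited by the authors equalled count over gene length and over a library size of 0.953 to 1.07 times the summed counts.

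Counts were tested in R 4.3.3 with edgeR 4.0.16: filterByExpr (least count 10), TMM scaling, quasi-likelihood F test with robust estimation, genotype as the only term, two-sided, Benjamini-Hochberg adjustment over 13740 genes, threshold 0.05. A standard error is the absolute log2 fold change over the square root of F. CPM are TMM-normalised. Every test script was first tested on simulated data. Alternatives were RLE and upper quartile scaling, no filter, a mean of at least 50 counts, DESeq2 1.42.0, limma-voom (limma 3.58.1), a replicate block, a sex term, an adjusted threshold of 0.1, each library left out, and other member rules. Same-numbered libraries correlated by 0.0917, -0.0256 and 0.269 in their deviations from group means, so numbers were not taken as pairs.

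The members, role groups and gene lists were chosen with earlier results of these data known. Named by rule were members at least 2-fold apart without overlap, the 10 with the highest mean FPKM, the highest of each subfamily of 2 or more, and those nearest the count limit; other members and genes were named after their values were seen. Promoters are RefSeq windows (the full Maf element was searched for after seeing the data), and shared 50-base windows come from GENCODE transcripts of the same build.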

Additional observations from a re-analysis of the deposited data

How the results depend on the processing

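The median log2 fold change of the members moved by less than the spread between replicates under every alternative run (-0.80 to -0.47 with a library left out). The number of members below 0 ran from 23 of 25 tested (mean of at least 50 counts) to 28 of 31 (no filter). These counts were chosen after seeing the data. Whether members passed the threshold depended on the setting. Lower members numbered 0 in the edgeR fit reported and with RLE scaling, limma-voom, the sex term or a mean of at least 50 counts. They numbered 10 with DESeq2, 2 with no filter and 4 with the replicate block (Cyp4b1, Cyp4v3, Cyp27a1 and Cyp2w1). Upper quartile scaling gave 1, and an adjusted threshold of 0.1 gave 4. With a library left out the number ran from 0 to 9, and the 9 came without Maf.flox replicate 3. No member was higher in any of these fits. Genes called in all numbered 75 in the fit reported, 760 with DESeq2, 34 with limma-voom, 365 with no filter, 440 with the replicate block, 38 with the sex term, 372 at a threshold of 0.1, and 8 to 701 with a library left out (31 without Maf.flox replicate 1, 12 without 2, 701 without 3). Cyp3a13 ran from -0.26 (without Maf.flox replicate 3) to 0.03 (without replicate 2), against -0.08 with all libraries, and was 0.02 without replicate 1. The causes were not tested. Apart from the replicate block fit, deviations from group means were correlated between groups. There, 3 of 6 libraries correlated best with the library of their own number. The labels give no such pairs, and so few libraries cannot show whether the numbers are pairs. Over the 17 members and 6 partner or regulator genes named by rule, 293 log2 fold changes under alternatives kept their direction and side of the threshold, 24 newly passed it and 2, both of Cyp3a13, turned direction. Outside that rule, Cyp2s1 and Cyp17a1 turned to 0.06 and 0.04 without Vil.Cre Maf.flox replicate 1. Depth limits Cyp1a1, Cyp26b1, Cyp3a44 and Cyp2t4, where 3 counts are 0.126 to 0.176 CPM.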
